A study of Mus musculus with 6 samples.

Results

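Mitochondrial ribosomal proteins build the mitoribosome, the ribosome that translates the few mRNAs encoded by mitochondrial DNA inside the organelle. The genes are nuclear: the proteins are made in the cytosol, imported, and assembled with mitochondrial rRNA into a small subunit, which reads the mRNA, and a large subunit, which joins amino acids. Its products are core subunits of the respiratory chain and of ATP synthase, so a neuron-rich tissue such as the cerebellum depends on it for its energy supply. Some of these proteins descend from ribosomal proteins of bacteria and others occur only in mitochondrial ribosomes.

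The members were all probe sets whose platform annotation gives exactly 1 gene symbol of the form Mrpl or Mrps followed by a number and at most 1 letter. A probe set is a group of short probes on the array that report on 1 transcript. The rule took 156 of 45037 probe sets, for 76 of 18193 genes: 47 genes of the large subunit with 104 probe sets and 29 genes of the small subunit with 52. Another 4 probe sets name a mitoribosomal gene together with a second gene and were left out. Unless another is named, the probe set printed for a gene is its brightest one, by the mean of all 6 arrays. The split into subunits follows the symbols, although in structures of the mammalian mitoribosome the products of Mrps30 and Mrps18a lie in the large subunit, and Mrps36 is now assigned to a dehydrogenase complex.

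The samples were cerebella of transgenic mice labelled daDREAM (3 arrays) and of wild-type mice (3 arrays), with total RNA from frozen tissue on an Affymetrix whole-genome mouse array. DREAM, the product of Kcnip3, is a DNA-binding repressor that calcium releases from DNA, and daDREAM is a mutant form that represses irrespective of calcium. The comparison addresses which cerebellar transcripts differ in mice that carry it. The sources used here give no strain, age, sex or transgene promoter, and the arrays of a genotype are, by the design text, biological replicates.

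Values are RMA signals on a log2 scale, where a step of 1 is a factor of 2, and differences are daDREAM minus wild type. Across all probe sets the Pearson correlations were 0.973 to 0.990 within daDREAM, 0.989 to 0.997 within wild type and 0.981 to 0.993 between genotypes. The interquartile range of the signals was widest on daDREAM replicate 1, at 3.49, and narrowest on daDREAM replicate 3, at 2.97, so these arrays lie at opposite ends. The markers of the labelled tissue were bright: the 5 measured granule cell markers averaged 11.71 to 11.90 in daDREAM and 11.80 to 11.86 in wild type, and the 4 measured Purkinje cell markers 12.11 to 12.20 in daDREAM and 12.13 to 12.20 in wild type. The 4 measured forebrain markers averaged 5.02 to 5.16 in daDREAM and 5.07 to 5.12 in wild type. Choroid plexus markers were higher in daDREAM in 6 of 6 genes (6.66 to 6.96, against 6.36 to 6.59 in wild type), microglial markers in 5 of 5 (6.57 to 6.68, against 6.38 to 6.50), and brainstem markers lower in 5 of 5 (5.02 to 5.13, against 5.13 to 5.27). Only these marker sets had a single direction. Granule cell and astrocyte (with Bergmann glia) markers were lower in 4 of 5 genes, and Purkinje cell and endothelial markers in 3 of 4. Oligodendrocyte and forebrain markers were higher in 2 of 4, and blood markers in 2 of 3. None of these markers is listed at 0, and their part in the values below was not tested. In whole tissue, fewer cells of a type and less RNA per cell cannot be told apart.

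Because DREAM acts on promoters, the bases before the start of 6 members are shown: Mrpl39 and Mrpl41, whose signals were higher in daDREAM without overlap of the arrays, Mrpl28 and Mrps30, lower without overlap, and Mrps22 and Mrpl51, both lower on average with overlap. They come from RefSeq on GRCm38.p6, run 5′ to 3′ on the strand of the gene and give the 150 bases just before the annotated start. Capitals mark the letters searched for 3 factors known to drive nuclear genes of mitochondria: GCATGCGC for NRF1, CCGGAAG for ETS factors such as GABPA, and AAGATGGC for YY1, each on both strands.
Mrpl39, chr16:84735245-84735394, - strand: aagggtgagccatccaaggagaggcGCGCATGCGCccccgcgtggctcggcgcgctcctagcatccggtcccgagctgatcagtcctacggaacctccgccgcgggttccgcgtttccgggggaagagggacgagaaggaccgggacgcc
Mrpl41, chr2:24975099-24975248, - strand: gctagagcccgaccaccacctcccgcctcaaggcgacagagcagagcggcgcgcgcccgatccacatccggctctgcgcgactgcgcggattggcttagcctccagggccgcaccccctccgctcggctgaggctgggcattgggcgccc
Mrpl28, chr17:26123353-26123502, + strand: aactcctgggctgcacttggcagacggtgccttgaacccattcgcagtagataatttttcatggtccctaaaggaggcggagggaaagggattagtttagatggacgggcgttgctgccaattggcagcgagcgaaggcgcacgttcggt
Mrps30, chr13:118387253-118387402, - strand: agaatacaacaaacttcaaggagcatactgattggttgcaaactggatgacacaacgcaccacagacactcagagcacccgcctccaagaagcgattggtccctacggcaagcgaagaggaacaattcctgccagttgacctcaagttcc
Mrps22, chr9:98601680-98601829, - strand: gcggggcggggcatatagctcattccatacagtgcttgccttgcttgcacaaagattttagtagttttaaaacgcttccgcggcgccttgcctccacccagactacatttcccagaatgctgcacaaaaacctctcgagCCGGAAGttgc
Mrpl51, chr6:125192050-125192199, + strand: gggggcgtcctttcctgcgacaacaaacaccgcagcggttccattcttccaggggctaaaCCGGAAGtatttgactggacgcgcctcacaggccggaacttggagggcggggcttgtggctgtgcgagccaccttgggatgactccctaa

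Of these 6 windows, that of Mrpl39 holds the NRF1 letters on both strands, at overlapping places, and those of Mrps22 and Mrpl51 hold the ETS letters. A promoter of 300 bases (250 before the start and 50 after it) was found for 67 of the 76 members, by gene ID. The ETS letters occurred in 25 of the 67 (37.3%), against 15% of the 14368 array genes with a promoter and 8.86% of all 32851 promoters. The YY1 letters occurred in 12 members (17.9%), against 4.09% of the array genes and 2.75% of all promoters. The NRF1 letters occurred in 8 members (11.9%), against 4.70% of the array genes and 2.71% of all promoters. GTCA, the core of the element that DREAM binds, is 4 letters long and common: it occurred in 56 members (83.6%), against 85.2% of the array genes and 85.2% of all promoters. GTCA lies in the windows of Mrps30 and Mrpl51, 2 times in each, and not in the other windows shown. The 6 windows are a selection, so their matches do not describe the other members. A match is a description of the letters, not a binding site.

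No mitoribosomal gene passed the limma test in daDREAM against wild type. Of the 76 genes 0 reached a Benjamini-Hochberg adjusted p under 0.05 over all 45037 probe sets (0% of all probe sets did), and the adjusted p of the members was 0.998 to 0.999. With a trended and robust variance prior in limma the count was also 0. Since none of the 45037 probe sets passed, a count of 0 does not show that the members were unaltered. At an unadjusted p under 0.05 limma gave 1 member of 76, Mrpl54 (1.42% of all genes reached it). It stood on the higher side, as did 0.951% of all genes, and 0 members stood on the lower side, where 0.473% of all genes did. The 3 daDREAM and 3 wild-type arrays did not overlap at 6 of 76 members (7.89%), against 5.59% of all genes. On the higher side these were Mrpl54, Mrpl41 and Mrpl39 (3.55% of all genes were higher without overlap), and on the lower side Mrpl28, Mrpl24 and Mrps30 (2.04% of all genes). These shares lie near those of all genes.

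Differences were small in both directions. The members' differences ran from -0.28 for Mrps22 to 0.32 for Mrpl54, with a median of -0.01 and quartiles of -0.12 and 0.07. The median size of a member's difference was 0.10 log2 units, as over all genes (0.10). The 95% intervals of this fit give the range of differences left for each gene. All 76 lay inside 0.75 log2 units to either side of 0, a factor of 1.68, as did 16718 of 18193 genes. Inside 0.5, a factor of 1.41, lay 60 of 76, against 10960 of 18193 genes. The median interval of a member reached 0.30 to either side, the narrowest was that of Mrpl39 at 0.25 and the widest that of Mrpl1 at 0.55. These bounds hold for this fit alone. With the hybridization control RNA, described below, as a term in the model, 65 of 76 intervals lay inside 0.75, against 11658 of 18193 genes. In that model the estimates of several members fell outside their intervals here. Among them were Mrps9 (0.59) and Mrpl1 (0.53), above intervals that end at 0.39, and Mrpl33 (-0.57), below an interval that starts at -0.51.

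**Figure D1:**
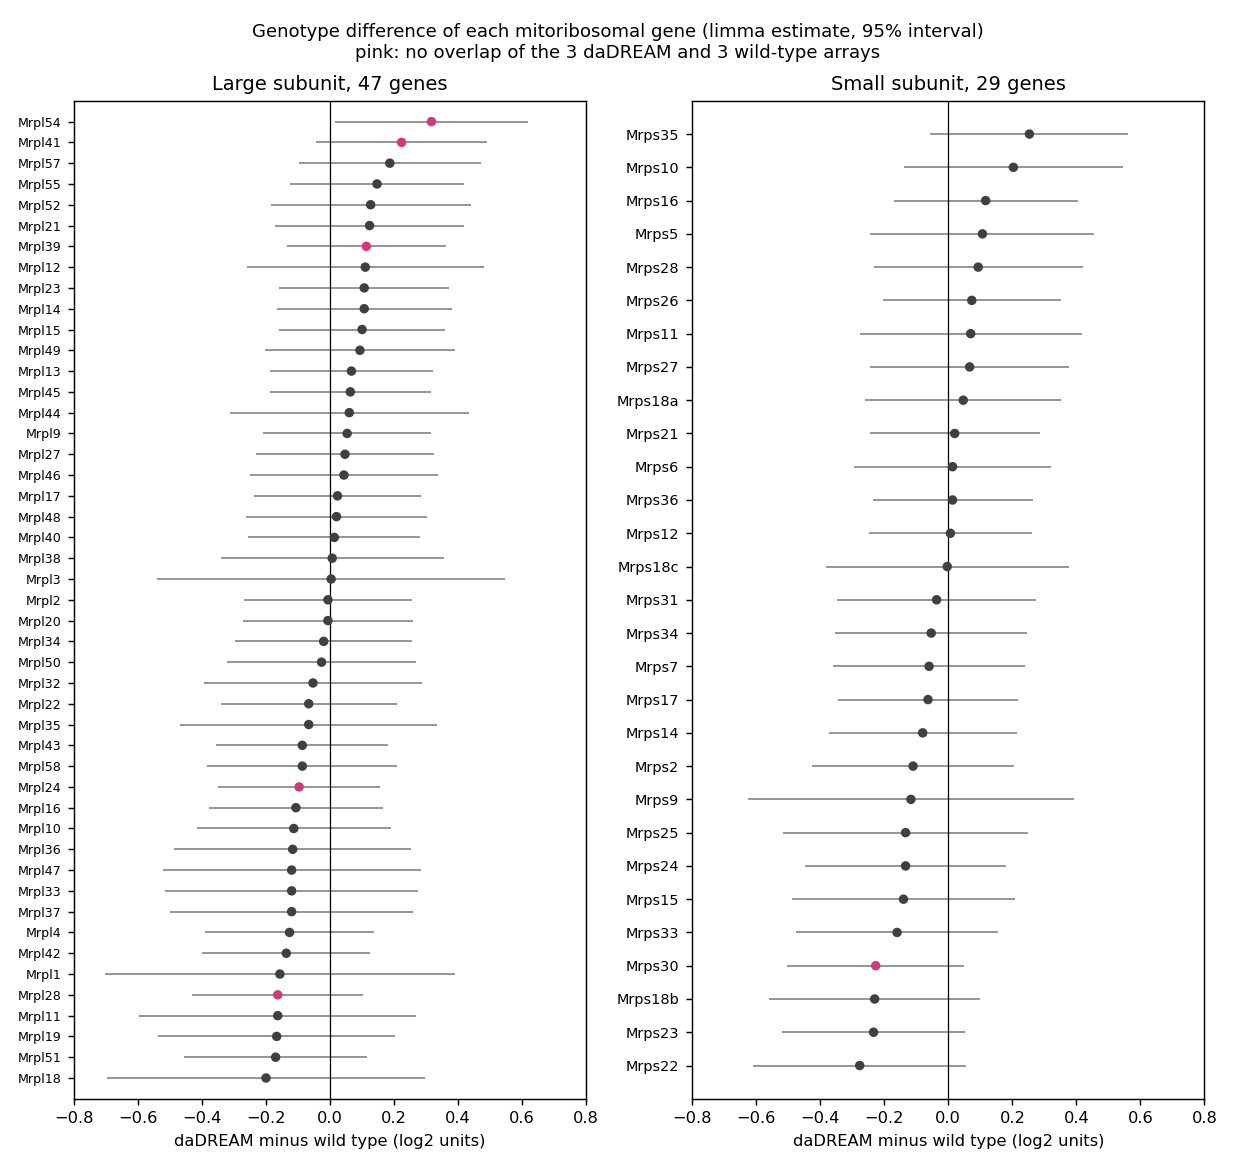
Genotype difference (daDREAM minus wild type, log2 units) of each mitoribosomal gene, large subunit left and small subunit right, with limma's 95% interval as a line. Pink points are the 6 genes whose daDREAM and wild-type arrays do not overlap, and the interval of 1 gene, Mrpl54, leaves out 0.

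In the large subunit 23 of 47 genes were higher and 24 lower in daDREAM, with a median difference of -0.01. In the small subunit 13 of 29 were higher and 16 lower, with a median of -0.04. Over all genes 51.2% were higher, with a median of 0.01. Among the 6932 genes with a mean signal of at least 7, where 71 of the 76 members lie, 38.8% were higher and the median was -0.04. The mean signal of the 47 large subunit genes was 8.13, 8.10 and 8.02 on daDREAM replicates 1 to 3, against 8.10, 8.13 and 8.05 on wild-type replicates 1 to 3. That of the 29 small subunit genes was 8.01, 7.93 and 7.81 on the daDREAM arrays, against 7.97, 8.04 and 7.84 on the wild-type arrays. The genotypes overlap in both subunits. The signs of both medians depend on scaling: after renewed quantile normalization they were 0.04 for the large and 0.0022 for the small subunit, and after median centring -0.03 and -0.06. The mean of 18 hybridization controls, RNA added in a fixed amount to each sample, was 9.47, 10.14 and 10.47 in daDREAM, against 8.99, 8.99 and 9.48 in wild type (exact permutation p = 0.2, 2-sided). In a fit with that mean as a term, 31 of 47 large subunit genes were higher (median 0.05) and 25 of 29 small subunit genes (median 0.15), with 0 members past the adjusted threshold in limma and 9 of 76 at an unadjusted p under 0.05. In that fit 11.8% of the members reached the unadjusted p, against 24.3% of all genes and 18.1% of genes with a mean of at least 7. Of all genes 51.7% were higher in it, and of genes with a mean of at least 7, 81.3%. The control level itself averaged 10.03 in daDREAM and 9.15 in wild type, so it is partly confounded with genotype. With 6 arrays this fit cannot fully separate control level from genotype, and its estimates are not corrected genotype differences.

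Grouped by descent, the members gave a mixed picture. Of 28 large subunit genes with a bacterial homolog 10 were higher and 18 lower in daDREAM (median -0.06), and of the 19 others 13 were higher and 6 lower (median 0.04). In the small subunit the order of the medians was the opposite: 9 of 18 genes with a bacterial homolog were higher (median 0.0017), and 3 of 10 without one (median -0.09). Mrps36 was counted in neither group. Mrps30 (-0.23) and Mrps18a (0.05) were counted in the small subunit by their symbols, although their products lie in the large subunit. No test was made between these groups.

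On the higher side, Mrpl54, a large subunit protein with no bacterial homolog, had signals of 6.74, 6.67 and 7.03 in daDREAM, against 6.50, 6.47 and 6.52 in wild type. All 3 daDREAM arrays lay above all wild-type arrays, and replicate 3 stood apart from the other two. The difference was 0.32 (95% interval 0.01 to 0.62), a factor of 1.25, with a limma unadjusted p of 0.0419 and an adjusted p of 0.998. It was 0.21 without daDREAM replicate 3 and 0.15 with adjustment for the hybridization controls. The dimmer probe set of Mrpl54 had 4.35, 4.70 and 4.91 in daDREAM, against 4.39, 4.48 and 4.75 in wild type, with overlap and a difference of 0.11.

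Mrpl41, also particular to mitochondrial ribosomes, had 9.17, 9.03 and 9.05 in daDREAM, against 8.93, 8.89 and 8.76 in wild type. The arrays did not overlap, and the difference was 0.22 (interval -0.04 to 0.49). A second bright probe set of Mrpl41, with a mean of 8.86, differed by 0.04 and overlapped. Mrpl39 had 9.46, 9.49 and 9.39 in daDREAM, against 9.34, 9.30 and 9.36 in wild type. Here the arrays of a genotype lay close together, so they did not overlap although the difference was only 0.11 (interval -0.14 to 0.36). Its other probe set differed by -0.03.

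Other genes on the higher side overlapped between genotypes. Mrps35, a small subunit protein with no bacterial homolog, had 7.65, 7.92 and 7.98 in daDREAM, against 7.53, 7.72 and 7.54 in wild type. The difference was 0.25 (interval -0.06 to 0.56), with 2 of 3 daDREAM arrays above all wild-type arrays. Mrpl57, a short protein found only in mitochondrial ribosomes, had 8.55, 8.73 and 8.58 in daDREAM, against 8.31, 8.43 and 8.56 in wild type. Wild-type replicate 3 alone lay within the daDREAM values, and the difference was 0.19 (interval -0.10 to 0.47).

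Among small subunit genes with bacterial homologs, Mrps10 had 8.0, 7.99 and 7.80 in daDREAM, against 7.84, 7.88 and 7.46 in wild type, a difference of 0.20 (interval -0.14 to 0.54). Mrps16, mutated in a human respiratory chain deficiency, had 8.52, 8.73 and 8.67 in daDREAM, against 8.58, 8.61 and 8.38 in wild type, a difference of 0.12. Mrps5 had 7.71, 7.30 and 7.52 in daDREAM, against 7.51, 7.50 and 7.20 in wild type, a difference of 0.11. In each of these genes wild-type replicate 3 was the lowest of the wild-type arrays and the genotypes overlapped.

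On the lower side, Mrps30 had 7.64, 7.51 and 7.37 in daDREAM, against 7.77, 7.75 and 7.68 in wild type. The arrays did not overlap, and the difference was -0.23 (interval -0.50 to 0.05), with no other probe set to compare. Mrpl28, homolog of the bacterial protein L28, had 8.55, 8.56 and 8.40 in daDREAM, against 8.68, 8.74 and 8.58 in wild type, a difference of -0.16 (interval -0.43 to 0.10). Its other probe sets, with means of 8.50 and 8.26, differed by 0.05 and -0.10, and both overlapped. Mrpl24 had 8.17, 8.19 and 8.11 in daDREAM, against 8.33, 8.23 and 8.20 in wild type. Its arrays were apart by 0.01 at their closest, and the difference was -0.10 (interval -0.35 to 0.16).

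Mrps22, a small subunit protein whose loss-of-function variants cause a respiratory chain deficiency in humans, had the most negative difference of the members. Its signals were 7.64, 7.37 and 7.27 in daDREAM, against 7.78, 7.80 and 7.53 in wild type. The genotypes overlapped, since daDREAM replicate 1 lay above wild-type replicate 3, and the difference was -0.28 (interval -0.61 to 0.06). With the hybridization control level as a term, which the fit cannot fully separate from genotype, it was 0.08, of opposite sign. Mrps23, a small subunit protein with no bacterial homolog, had 7.39, 7.62 and 7.46 in daDREAM, against 7.75, 7.82 and 7.60 in wild type. Here daDREAM replicate 2 reached just above wild-type replicate 3, and the difference was -0.23 (interval -0.52 to 0.05). Its other probe sets differed by -0.02 and -0.20.

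In the large subunit, Mrpl51 and Mrpl42, neither of bacterial descent, were on the lower side at their brightest probe sets. Mrpl51 had 8.58, 8.34 and 8.36 in daDREAM, against 8.62, 8.67 and 8.50 in wild type, a difference of -0.17 (interval -0.45 to 0.11). Mrpl42 had 9.13, 9.14 and 9.23 in daDREAM, against 9.37, 9.34 and 9.20 in wild type, a difference of -0.14 (interval -0.40 to 0.13). In each, 1 array crossed: daDREAM replicate 1 for Mrpl51 and wild-type replicate 3 for Mrpl42. The dim second probe set of Mrpl42, with a mean of 3.29, differed by 0.25.

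**Figure D2:**
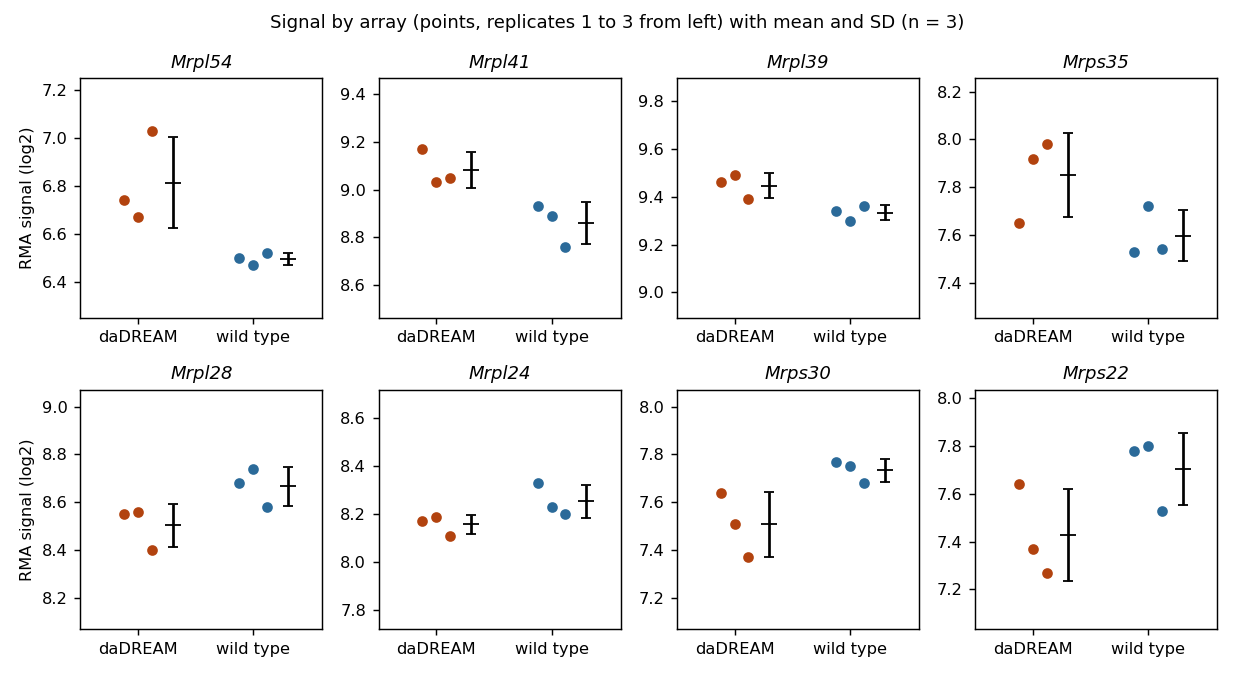
RMA signal (log2) of 8 members on each array, daDREAM left and wild type right in each panel, with mean and SD (n = 3) beside the points. Each panel spans 1 log2 unit; the arrays are apart in Mrpl54, Mrpl41, Mrpl39, Mrpl28, Mrpl24 and Mrps30 and overlap in Mrps35 and Mrps22.

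The genes of known functional sites showed no common direction. Mrpl10 and Mrpl12 form the stalk that contacts translation factors and Mrpl11 its base. Mrpl12 had 8.45, 8.49 and 8.62 in daDREAM, against 8.55, 8.60 and 8.08 in wild type, where replicate 3 was low, and it differed by 0.11 (interval -0.26 to 0.48). Mrpl10 had 8.41, 8.32 and 8.39 in daDREAM, against 8.53, 8.65 and 8.28 in wild type, a difference of -0.11 (interval -0.42 to 0.19), again with wild-type replicate 3 the lowest. Mrpl11 differed by -0.16 (interval -0.60 to 0.27) and overlapped. Mrps12, a protein of the decoding centre, had 8.86, 8.94 and 8.85 in daDREAM, against 8.92, 8.90 and 8.81 in wild type. Its difference of 0.01 has an interval of -0.25 to 0.26. Mrpl44, which carries a ribonuclease III fold and is mutated in a human cardiomyopathy, had 8.24, 8.55 and 8.75 in daDREAM, against 8.45, 8.29 and 8.62 in wild type. The difference was 0.06 (interval -0.31 to 0.43), with the highest value on daDREAM replicate 3 and the lowest on daDREAM replicate 1.

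The Mrps18 paralogs are 3 genes related to bacterial S18. Mrps18b had 7.61, 7.58 and 7.26 in daDREAM, against 7.79, 7.80 and 7.55 in wild type, a difference of -0.23 (interval -0.56 to 0.10). Mrps18a had 8.40, 8.40 and 8.10 in daDREAM, against 8.37, 8.21 and 8.18 in wild type, a difference of 0.05 (interval -0.26 to 0.35). Mrps18c had 8.11, 7.67 and 7.51 in daDREAM, against 7.73, 7.80 and 7.77 in wild type, a difference of -0.0033 (interval -0.38 to 0.38). All 3 overlapped between genotypes and had their lowest value on daDREAM replicate 3. Differences between the paralogs were not tested.

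The 43 members outside the naming rule had differences from -0.20 for Mrpl18 to 0.15 for Mrpl55. Among the homologs of core bacterial proteins, Mrpl2 had 8.59, 8.72 and 8.67 in daDREAM, against 8.57, 8.72 and 8.71 in wild type, a difference of -0.0067 (interval -0.27 to 0.26). Mrpl4 differed by -0.13, Mrpl16 by -0.11, Mrpl22 by -0.07 and Mrpl23 by 0.11. Mrpl22 and Mrpl23 are homologs of proteins that line or border the exit tunnel, as does Mrpl45, a mitochondrial addition that helps bind the ribosome to the inner membrane, which differed by 0.06. Mrpl58, a peptidyl-tRNA hydrolase built into the large subunit, differed by -0.09 (interval -0.38 to 0.21). In the small subunit the homologs Mrps2, Mrps7 and Mrps11 differed by -0.11, -0.06 and 0.07. Mrps36 had 8.29, 8.30 and 8.32 in daDREAM, against 8.22, 8.32 and 8.33 in wild type, a difference of 0.01. These genes were named after their values were seen. The naming rule takes genes with arrays apart first, so it fixes that none is found among the 43.

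Signals of members spanned 4.41 to 9.39 as means over the 6 arrays, and 75 of 76 had a mean of at least 5. A signal depends on the probes as well as on the transcript, so these values do not rank transcripts. The brightest probe sets of the large subunit were those of Mrpl39 (9.39), Mrpl42 (9.23) and Mrpl27 (9.08), and those of the small subunit were Mrps34 (8.96), Mrps12 (8.88) and Mrps14 (8.86). The dimmest were Mrpl33 (4.41), Mrpl54 (6.66) and Mrpl1 (6.84) in the large subunit, and Mrps27 (6.68), Mrps25 (6.93) and Mrps9 (7.02) in the small subunit. Mrpl33 was dim at both of its probe sets, the other with a mean of 4.25. Of these genes, Mrpl27 differed by 0.05, Mrps34 by -0.05, Mrps14 by -0.08, Mrpl33 by -0.12, Mrps27 by 0.07 and Mrps25 by -0.13, all with overlap.

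By the median, the arrays of a genotype lay closer together at the members than over all genes, and closer still in related families. No test was made of this. The spread from the lowest to the highest daDREAM array had a median of 0.24 over the members, against 0.40 over all genes and 0.34 over genes with a mean of at least 7. It was 0.21 over cytosolic ribosomal protein genes and 0.17 over respiratory chain genes. In wild type it was 0.19 over the members, 0.15 over cytosolic ribosomal protein genes, 0.11 over respiratory chain genes, 0.25 over all genes and 0.22 over those with a mean of at least 7. It exceeded 0.5 in daDREAM at 13 of 76 members (17.1%), against 29.6% of genes with a mean of at least 7, and in wild type at 1 member (1.32%), against 9.19%. For cytosolic ribosomal protein genes these shares were 6.12% in daDREAM and 12.2% in wild type, the latter above that of the members. For respiratory chain genes they were 2.74% and 0%. The spread was wider in daDREAM than in wild type at 46 members and narrower at 29, and 71.0% of all genes were wider in daDREAM.

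Of the 13 members with a daDREAM spread over 0.5, 9 had their highest daDREAM signal on replicate 1 and their lowest on replicate 3, among them the 5 widest. Mrpl47 was highest on replicate 2, and Mrpl35, Mrpl44 and Mrps11 on replicate 3. Mrpl3, homolog of a protein beside the peptidyl transferase centre, had 8.31, 7.94 and 7.29 in daDREAM, against 7.78, 7.81 and 7.94 in wild type. The daDREAM arrays enclosed all wild-type arrays, and the difference was 0.0033 (interval -0.54 to 0.55). Mrpl1, which builds the stalk on the exit side, had 7.36, 6.50 and 6.41 in daDREAM, against 6.96, 6.89 and 6.89 in wild type. Its wild-type arrays spanned 0.07 and its daDREAM arrays 0.95, and the difference was -0.16. Mrps9 had 7.43, 6.86 and 6.58 in daDREAM, against 7.10, 7.27 and 6.85 in wild type, a difference of -0.12. Mrpl11 ran the same way, at 8.39, 8.07 and 7.65 in daDREAM, against 8.31, 8.18 and 8.11 in wild type. Mrpl18, named after its values were seen, had 8.19, 7.75 and 7.32 in daDREAM, against 8.0, 8.09 and 7.77 in wild type. Another probe set of Mrpl3 had the same order, at 6.91, 6.51 and 5.90 in daDREAM, against 6.30, 6.46 and 6.43 in wild type. Without daDREAM replicate 1 the difference of Mrpl3 was -0.23, and without daDREAM replicate 3 it was 0.28.

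Signals on daDREAM replicate 1 were above those on replicate 3 at 52 of 76 members (68.4%), against 77.3% of genes with a mean of at least 7 and 48.3% of all genes. daDREAM replicate 3 held the lowest of the 6 values at 33 members (43.4%, ties counted), against 50.4% of genes with a mean of at least 7 and 28.3% of all genes. Wild-type replicate 3 was the lowest at 19 members (25%), against 23.7% of genes with a mean of at least 7 and 15.8% of all genes. In the small subunit daDREAM replicate 3 was the lowest at 15 of 29 genes, and wild-type replicate 2 was the lowest at 0 and the highest at 12. At 9 members daDREAM replicate 3 held instead the highest of the 6 values: Mrpl12, Mrpl13, Mrpl35, Mrpl44, Mrpl45, Mrpl52, Mrpl54, Mrps11 and Mrps35, of which those outside the naming rule were named after their values were seen. The difference between the 3′ and 5′ probe sets of beta-actin, a measure of RNA integrity, was 0.96, 0.58 and 0.63 in daDREAM, against 0.79, 0.79 and 0.78 in wild type. That of Gapdh was 0.25, 0.01 and 0.08 in daDREAM, against 0.25, 0.29 and 0.12 in wild type. Their part in the order of the arrays was not tested.

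**Figure D3:**
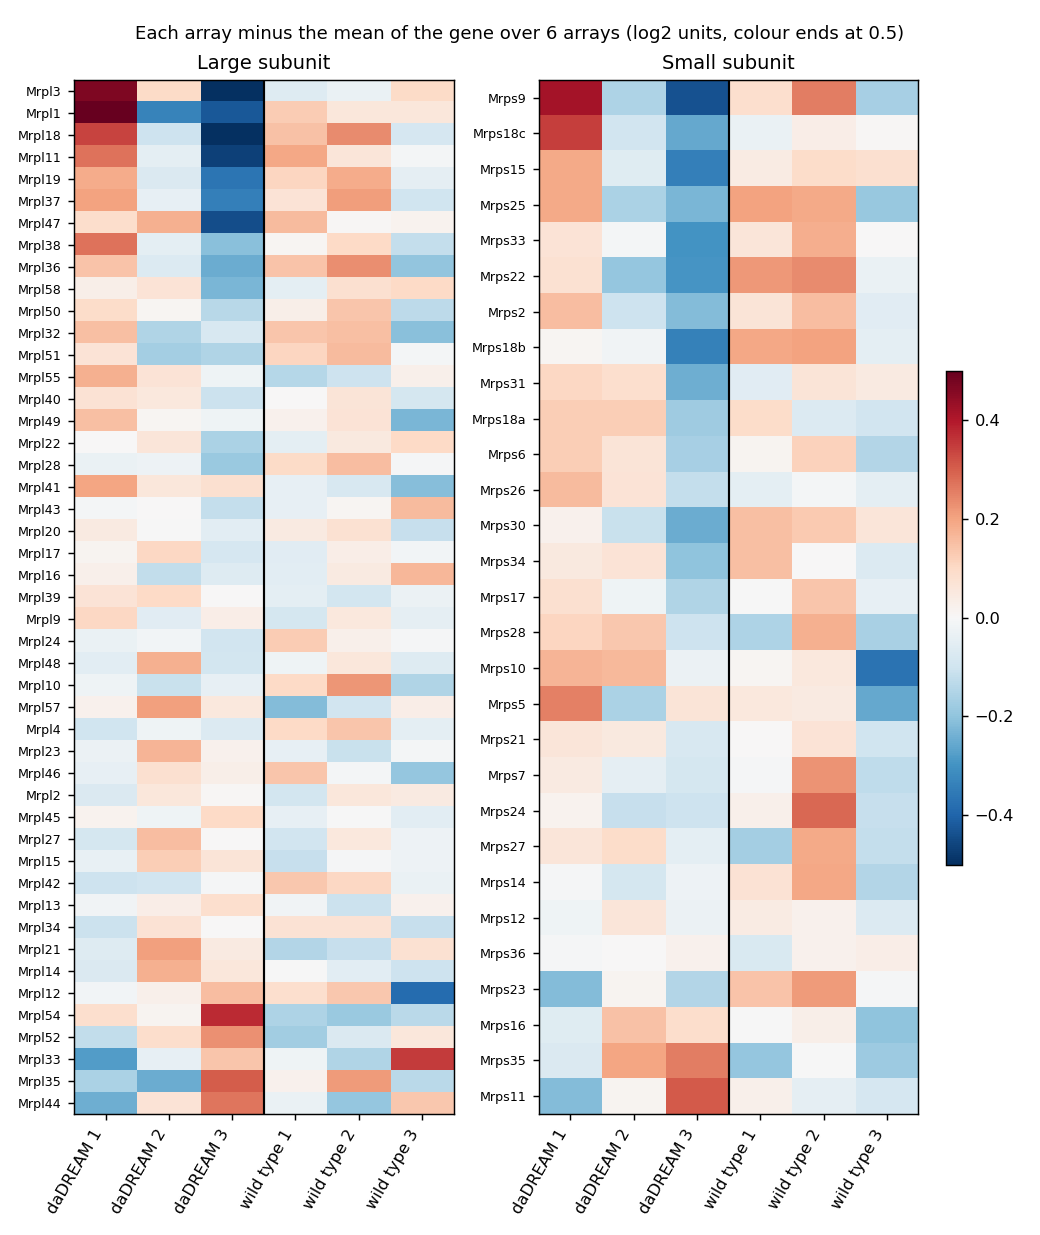
Signal of each member on each array minus its mean over the 6 arrays (log2 units, red above and blue below the mean, colours end at 0.5 to either side), daDREAM left of the line and wild type right. Genes run from the largest excess of daDREAM replicate 1 over daDREAM replicate 3 at the top of each subunit, Mrpl3 in the large and Mrps9 in the small, to the reverse at the bottom.

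**Figure D4:**
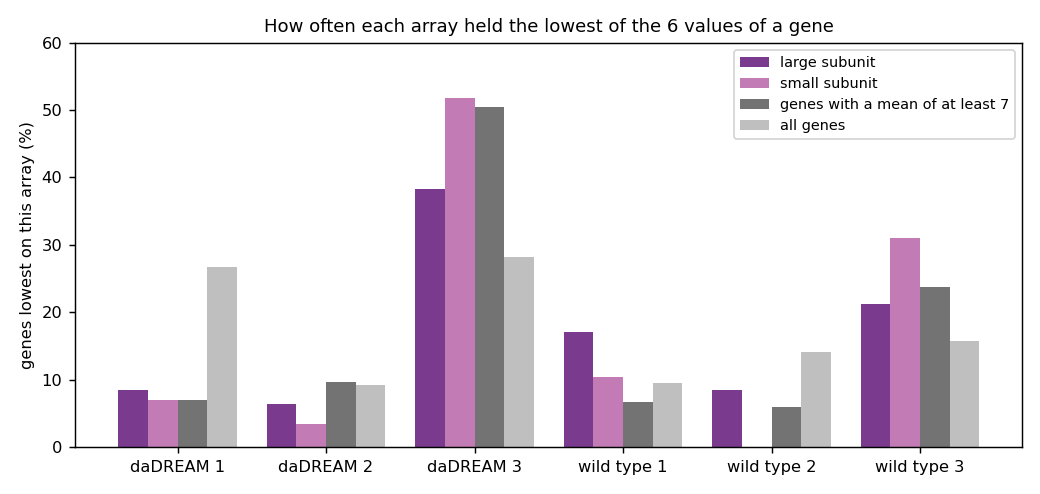
Percentage of genes whose lowest value lay on each array, for the large subunit, the small subunit, genes with a mean signal of at least 7 and all genes. daDREAM replicate 3 has the highest share in each set, and over all genes daDREAM replicate 1 is close to it (28.3% and 26.7%).

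More than 1 probe set measured 42 of the 76 genes, up to 8 for a gene. In 29 of the 42 the probe sets gave differences of both signs, and in 13 they gave one sign. Mrpl51 spread the most: its brightest probe set (mean 8.51) differed by -0.17, while 2 dimmer ones, with means of 5.19 and 3.89, differed by 0.21 and 0.32. The dimmest of these had 3.87, 4.04 and 4.23 in daDREAM, against 3.67, 3.75 and 3.77 in wild type, without overlap. It and Mrpl54 gave the 2 of 156 member probe sets at a limma unadjusted p under 0.05, against 1.81% of all probe sets. Mrpl47, related to bacterial L29, differed by -0.12 at its brightest probe set and by 0.32 and 0.16 at dimmer ones. Mrps10 differed by 0.20 at a probe set with a mean of 7.83 and by -0.26 at one with a mean of 6.19. The 5 probe sets of Mrps5 differed by -0.19 to 0.25, and the 2 brightest were both higher, by 0.11 and 0.25. Of the 80 probe sets that were not the brightest of their gene, 22 had a mean under 5, and 29 of the 80 were higher in daDREAM.

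**Figure D5:**
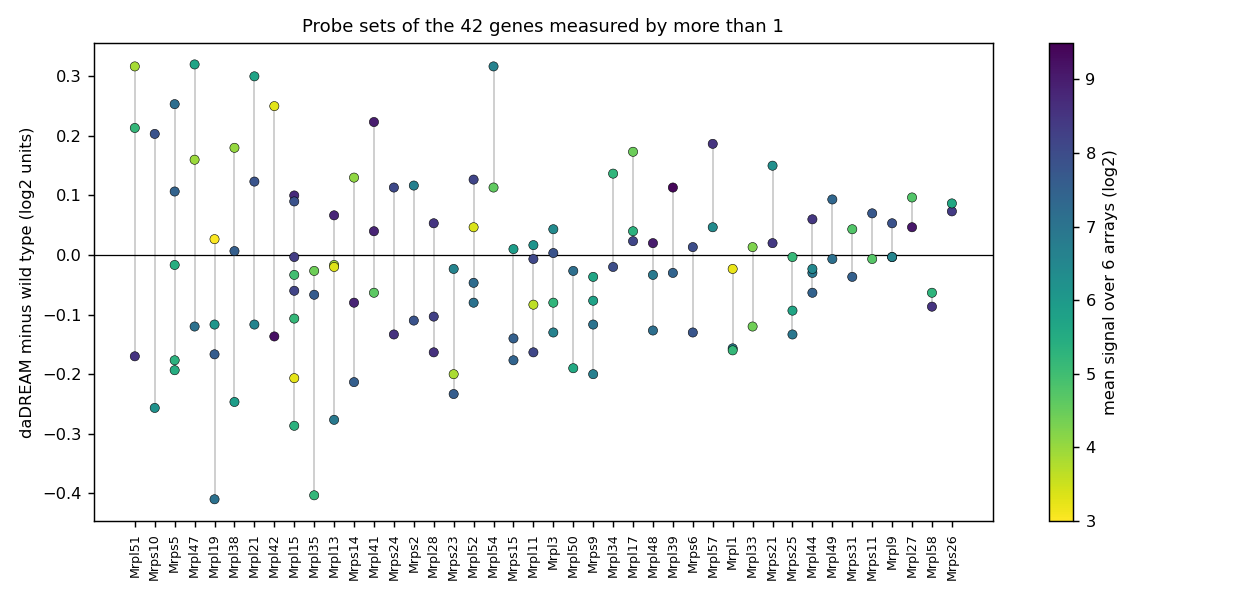
Genotype difference (daDREAM minus wild type, log2 units) of every probe set of the 42 members measured by more than 1, ordered by the spread between them, with colour for the mean signal over 6 arrays. Mrpl51, at the left, spans -0.17 to 0.32, and 29 of the 42 genes have points on both sides of 0.

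Genes that work with the mitoribosome were measured in the same fit, and none passed after adjustment. Of 4 measured mitoribosomal proteins under other symbols 2 were higher and 2 lower. Gadd45gip1, a protein at the exit of the large subunit tunnel, had the smallest unadjusted p among them, with a difference of 0.30 (interval -0.11 to 0.71). Of 13 mitochondrial translation factors 8 were higher (median 0.04), and the initiation factor gene Mtif3 differed by 0.19. Of 24 genes of mitoribosome assembly and rRNA modification 11 were higher (median -0.01). Among them Gtpbp10, a GTPase of large subunit assembly, had 5.26, 5.14 and 5.10 in daDREAM, against 4.74, 4.99 and 4.85 in wild type, a difference of 0.31 without overlap (limma unadjusted p = 0.0357, adjusted p = 0.998).

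Of 13 genes of mitochondrial transcription and its nuclear control 3 were higher and 10 lower in daDREAM (median -0.16), with 0 at a limma unadjusted p under 0.05. Tefm, an elongation factor of mitochondrial RNA polymerase, had 5.79, 5.52 and 5.52 in daDREAM, against 5.68, 6.08 and 5.84 in wild type. The genotypes overlapped, and the difference was -0.26 (interval -0.60 to 0.08). Of 18 mitochondrial tRNA synthetase genes 12 were higher (median 0.02), with Pars2 at 0.25 and overlapping arrays.

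Set beside the most similar gene families, the mitoribosomal genes (median -0.01, 36 of 76 higher) lay near both. Of 49 cytosolic ribosomal protein genes 21 were higher (median -0.03). Rpl12 differed by 0.29 with overlap, at a probe set that is dim for this family. It averaged 5.32 in daDREAM and 5.03 in wild type, against a median level of 10.85 over the family. Of 73 respiratory chain genes 33 were higher (median -0.01). In that family Uqcr11, a subunit of complex III, had 10, 9.99 and 10.1 in daDREAM, against 9.87, 9.81 and 9.71 in wild type, a difference of 0.23 without overlap (limma adjusted p = 0.998). The arrays did not overlap at 8.16% of the cytosolic ribosomal and 11% of the respiratory chain genes, against 7.89% of the mitoribosomal genes. No test of a difference between the families was made.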

How the data were processed

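Cerebellar RNA of daDREAM and wild-type mice was hybridised to 3 arrays per genotype. The titles of the samples gave transgenic or wild type and the replicate number. Log2 signals were deposited by the authors per probe set and array. They were made with RMA in the affy package per the submitters' processing notes (versions not given in the sources used here). RMA corrects background, equalises the probe distributions of the arrays and summarises each probe set, which can hide a shift shared by most genes. The values ran from 2.46 to 13.8. Of 45101 probe sets, 64 controls were left out and 45037 tested, and 34945 have 1 symbol. The test was limma 3.58.1 under R 4.3.3: lmFit, then eBayes, 2-sided and without covariates. P-values were adjusted by Benjamini-Hochberg over the 45037 probe sets (threshold 0.05), and intervals are at 95%. The procedure was tested on simulated data. Precision is limited by the number of arrays.

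The genes named are, for each subunit and direction, up to 4 with the smallest unadjusted p (non-overlapping genes first), the 3 brightest and 3 dimmest, the 2 with the widest spread between probe sets, the Mrps18 paralogs, 8 genes of known role, and the leading gene of each neighbouring list; others were named after their values were seen. Members and lists were chosen with earlier results of these data known. Alternatives were the replicate block, limits on mean signal, a trended and robust prior, median centring, renewed quantile normalization, other choices of probe set, the hybridization control level as a covariate and each array left out. The symbols of all 76 member genes matched in the RefSeq table of GRCm38.p6, used for promoters, and 67 members had a promoter. The NRF1 letters were shortened after a longer form had been counted.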

Additional observations from a re-analysis of the deposited data

How the results depend on the processing

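The adjusted test called 0 members and 0 probe sets in all 15 alternatives to which each applied. The smallest limma adjusted p of a named member was 0.0984 (Mrps9, with the hybridization covariate). Differences, in log2 units, are daDREAM less wild type, and the cause of a change was not tested. Of 817 probe sets at an unadjusted p under 0.05 (499 higher, 318 lower), the lower count was 536 with the replicate block and 655 after renewed quantile normalization. With a mean of at least 5, which tests fewer probe sets, 292 were higher and 186 lower, and with at least 7, 165 and 121. With the hybridization covariate, which is partly confounded with genotype, they were 4826 and 5645. Leaving out 1 array gave 180 to 3414 higher and 134 to 3840 lower, the most without daDREAM replicate 1 and the fewest higher without wild-type replicate 1. The count of members at an unadjusted p under 0.05, 1 (Mrpl54) as reported, was 0 with the replicate block, with a mean of at least 7, with the trended prior and with probe sets averaged by gene, 2 after renewed quantile normalization (Mrpl41 and Mrps22), 9 with the hybridization covariate (24.3% of all genes; Mrpl54 is not among the 9), and 0 to 6 without 1 array (6 without daDREAM replicate 1, Mrpl54 included). With that covariate the subunit medians were 0.0503 (large) and 0.147 (small), with 25 of 29 small subunit genes higher. Without 1 array the large subunit median was -0.033 to 0.030, with 20 to 30 genes higher, and the small subunit median -0.097 to 0.023, with 10 to 16 higher. Of 33 named members 9 kept their sign throughout. Signs turned with the hybridization covariate (Mrpl1 0.53, Mrpl10 0.039, Mrpl11 0.36, Mrpl27 -0.038, Mrpl44 -0.38, Mrpl47 0.20, Mrpl51 0.050, Mrps14 0.058, Mrps18b 0.075, Mrps18c 0.40, Mrps22 0.081, Mrps25 0.32, Mrps34 0.15, Mrps9 0.59), with a gene taken as the mean of its probe sets (Mrpl3 -0.041, Mrpl42 0.057, Mrpl44 -0.014, Mrpl47 0.12, Mrpl51 0.12, Mrps10 -0.027, Mrps5 -0.0053), without probe sets that can match several transcripts (Mrpl39 -0.030, Mrpl44 -0.030, Mrpl51 0.21), after median centring (Mrpl3 -0.023, Mrps12 -0.020) and after renewed quantile normalization (Mrps18c 0.039). Without 1 array at a time, 14 members turned: Mrpl1 -0.46 to 0.017, Mrpl11 -0.34 to 0.030, Mrpl12 -0.055 to 0.20, Mrpl27 -0.018 to 0.10, Mrpl3 -0.23 to 0.28, Mrpl33 -0.23 to 0.025, Mrpl44 -0.058 to 0.20, Mrpl47 -0.24 to 0.072, Mrps12 -0.027 to 0.028, Mrps18a -0.0033 to 0.15, Mrps18c -0.18 to 0.12, Mrps27 -0.0017 to 0.18, Mrps34 -0.10 to 0.033, Mrps9 -0.35 to 0.072. Correlations of same-numbered deviations from the genotype means were 0.119, -0.281 and 0.323, and the block changed no other call. These 3 values cannot show whether arrays of the same number share a factor. Replicate 3 had the narrowest interquartile range of its genotype in both, at 2.97 in daDREAM and 3.10 in wild type. With 3 arrays against 3 and no detection calls, differences of members under about 0.3 log2 units were within the median 95% interval.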
